A study of Mus musculus with 10 samples.

Results

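Keratins are the intermediate filament proteins of epithelial cells, and 10 keratin genes that mark the layers and the stress state of the epidermis are described here. They were taken by symbol from the 17016 genes of the authors' table, and all 10 were found. Krt5, Krt14 and Krt15 are keratins of the basal layer, Krt1, Krt10 and Krt2 belong to the suprabasal layers, and Krt6a, Krt6b, Krt16 and Krt17 are the stress keratins. The samples are whole skin of BALB/c female mice aged 10 to 11 weeks, and their RNA was sequenced. The shaved backs had received a 5% cream of imiquimod on each of 5 days. Imiquimod activates the receptor TLR7 and produces inflamed, thickened skin that is used as a model of psoriasis. The vehicle group (5 libraries) had imiquimod and vehicle, and the quinpirole group (5 libraries) had imiquimod and intraperitoneal quinpirole, which activates the dopamine receptor DRD2, given 5 times over the same period. Both groups therefore carried the imiquimod treatment, and skin without it was not analysed here. No label says that every library is from a different mouse, and the p-values therefore cover the spread among the libraries, which may be technical.

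Keratins assemble as obligate pairs of a type I chain with a type II chain. Krt14 pairs with Krt5 in the dividing basal cells, and Krt10 pairs with Krt1 once cells leave that layer and differentiate. After injury or in psoriasis, keratinocytes switch on Krt16 and Krt17 with the Krt6 chains, which interfollicular epidermis at rest makes little of. Hair follicles also make Krt5, Krt14, Krt15, Krt17 and the Krt6 chains, mainly in the outer root sheath and companion layer, so whole skin measures both compartments. On mm10 the type I members Krt10, Krt15, Krt14, Krt16 and Krt17 lie on the minus strand of chromosome 11, from 99385254 at Krt10 to 100261029 at Krt17. The type II members Krt6b, Krt6a, Krt5, Krt2 and Krt1 lie on the minus strand of chromosome 15, from 101676023 at Krt6b to 101850794 at Krt1. Each is a protein-coding gene, with 8 exons in the type I and 9 in the type II transcripts used here.

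How far reads can tell the members apart is set by their sequence, and the closest pair was Krt6a with Krt6b. Their coding sequences differed at 37 of 1659 aligned bases (97.8% identity), and the longest identical run was 280 bases. Of the distinct 50-base words of the Krt6a transcript, 49.5% also occurred in a transcript of another gene, and for Krt6b the share was 50.1%. The 60 coding bases in which they differ most, with 10 differences in capitals, are shown because reads over such stretches are what separates the genes (GENCODE transcripts, coding positions 817 to 876 in each, minus strand, chr15:101692484-101692543 for Krt6a and chr15:101678303-101678362 for Krt6b).
Krt6a: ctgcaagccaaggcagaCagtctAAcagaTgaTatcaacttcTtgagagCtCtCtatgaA
Krt6b: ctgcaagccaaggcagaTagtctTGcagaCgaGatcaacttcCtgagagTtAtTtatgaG
The levels of Krt6a and Krt6b are each uncertain to the extent that reads were divided between them. The related gene Gm5478, which shares such words with both, measured 125 to 332 CPM (read counts scaled to library size) in vehicle and 59.95 to 192 CPM with quinpirole, far below either. Krt16 shared 37.6% of its 50-base words, mainly with Gm11597, and Krt14 14.4%, mainly with Krt16. The level of Gm11597 is not given here. Krt16 is thus also uncertain to the extent that reads were divided. Krt5 shared 8.52%, Krt17 3.99% and Krt15 0.666%, and Krt1, Krt10 and Krt2 shared none with any other gene. At 100 bases the shares were 34.0% for Krt6a, 30.6% for Krt6b, 24.3% for Krt16, 2.88% for Krt14 and 2.38% for Krt5, with none for Krt17.

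The start regions of 4 members were in the RefSeq promoter table (GRCm38.p6), those of Krt5, Krt14, Krt10 and Krt2. The window of Krt14 starts inside the gene as GENCODE annotates it, and Krt2 was barely detected, so the windows of Krt5 and Krt10 are shown, a basal and a suprabasal gene, with 250 bases before and 50 after the start (Krt5 at chr15:101712856-101713155 and Krt10 at chr11:99389315-99389614, both minus strand). Capitals mark the TATA letters TATAAA on the sense strand, which begin 26 bases before the start of Krt10.
Krt5: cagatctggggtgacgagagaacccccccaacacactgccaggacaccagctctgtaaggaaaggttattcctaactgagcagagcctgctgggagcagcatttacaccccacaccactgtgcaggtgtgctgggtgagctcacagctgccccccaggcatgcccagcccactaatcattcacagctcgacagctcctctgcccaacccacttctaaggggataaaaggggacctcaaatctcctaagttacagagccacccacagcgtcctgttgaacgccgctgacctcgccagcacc
Krt10: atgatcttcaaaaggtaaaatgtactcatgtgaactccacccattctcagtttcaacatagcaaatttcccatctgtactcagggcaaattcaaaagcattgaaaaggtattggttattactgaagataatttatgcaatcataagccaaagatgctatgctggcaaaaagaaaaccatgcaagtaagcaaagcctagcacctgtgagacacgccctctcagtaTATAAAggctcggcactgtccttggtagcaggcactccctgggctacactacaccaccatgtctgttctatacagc
Those letters occurred in 8.28% of 32544 promoter windows of this length. The letters TGANTCA (AP-1), GCCNNNGGC (AP-2) and TTCNNNGAA (STAT), searched on both strands, occurred in 7.79%, 16.7% and 8.33% of windows and in none of the 4 keratin windows.

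The 10 keratins together took 2.53% to 4.57% of all reads of a library. Libraries held 6763367 to 8361877 reads assigned to genes, and 1 read was worth 0.119 to 0.146 CPM, so counting error is small for every member except Krt2. Per kilobase of transcript, Krt14 was the highest member in vehicle (5454 ± 1371 CPM per kb, SD, n = 5), followed by Krt6b (3680 ± 1095), Krt16 (2756 ± 656), Krt6a (2436 ± 869), Krt1 (1860 ± 400.5), Krt17 (1822 ± 429), Krt5 (1411 ± 215), Krt10 (689 ± 179), Krt15 (60.5 ± 28.4) and Krt2 (0.212 ± 0.23). The ranges of neighbours in this order overlapped from Krt14 down to Krt5, and below it Krt5, Krt10, Krt15 and Krt2 were each separate from the next. With quinpirole the order was Krt14, Krt1, Krt6b, Krt16, Krt17, Krt5, Krt6a, Krt10, Krt15 and Krt2, so Krt1 stood above every stress keratin, at 2537 ± 692 CPM per kb against 2076 ± 919.5 for Krt6b, and was the higher of that pair in 3 of 5 libraries.

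**Figure D1:**
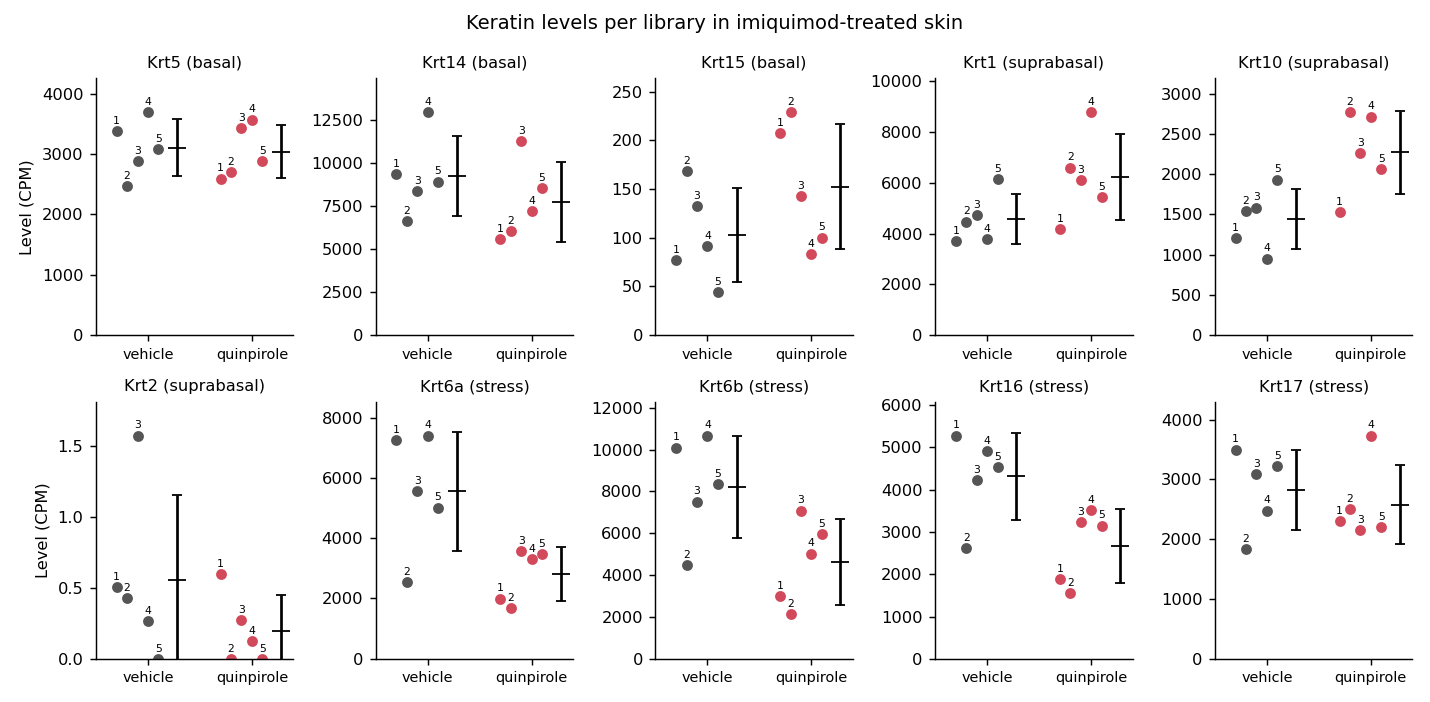
Level of each of the 10 keratins (CPM, linear axis from 0) in the 5 vehicle (grey) and 5 quinpirole (red) libraries, numbered by replicate, with the mean and SD in black. For Krt6a, Krt6b and Krt16 the vehicle library closest to the quinpirole group is replicate 2, and Krt10 is above the vehicle range in 4 of 5 quinpirole libraries.

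The basal pair showed no detectable difference between the groups. Krt5, the type II chain of the basal layer, measured 3384, 2465, 2877, 3697 and 3076 CPM in the vehicle libraries, in the order of replicates 1 to 5 that is kept throughout, and 2593, 2695, 3435, 3570 and 2888 CPM in the quinpirole libraries. The groups overlapped almost fully, and the log2 fold change of quinpirole over vehicle was -0.03 (SE 0.17, 95% interval -0.39 to 0.34, limma adjusted p = 0.967). Each fold change is a difference of group means of log2(CPM + 1), and limma p-values are adjusted over 14548 genes. Krt14, its type I partner, measured 9363, 6645, 8364, 12990 and 8939 CPM in vehicle and 5586, 6055, 11308, 7216 and 8574 CPM with quinpirole. Quinpirole replicates 1 and 2 lay below every vehicle library and the others within the vehicle range (log2 fold change -0.27, SE 0.27, 95% interval -0.86 to 0.32, limma adjusted p = 0.751). Krt15, a keratin of basal cells and of the follicle bulge, was at 77.4, 168, 132, 91.6 and 44.4 CPM in vehicle and at 208, 229, 143, 83.4 and 100.3 CPM with quinpirole. Its coefficient of variation was 47.0% in vehicle, the highest of the 9 tested members, and 42.1% with quinpirole, where that of Krt6b was higher at 44.3%, against 15.2% and 14.5% for Krt5. Its log2 fold change was 0.60 (SE 0.36, 95% interval -0.19 to 1.38, limma adjusted p = 0.561).

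The suprabasal pair had higher means with quinpirole, and neither gene passed the test. Krt10, the type I keratin of differentiating cells, measured 1209, 1543, 1584, 952 and 1932 CPM in vehicle and 1530, 2773, 2260, 2715 and 2067 CPM with quinpirole. Quinpirole replicates 2 to 5 were above every vehicle library, and replicate 1 was within the vehicle range. The means were 1444 ± 376 and 2269 ± 510.1 CPM (SD, n = 5 each), and the log2 fold change was 0.66 (SE 0.22, 95% interval 0.18 to 1.14, limma adjusted p = 0.281). Krt1, its type II partner, measured 3700, 4473, 4739, 3787 and 6138 CPM in vehicle and 4187, 6607, 6105, 8799 and 5447 CPM with quinpirole. Quinpirole replicates 2 and 4 exceeded every vehicle library (log2 fold change 0.43, SE 0.24, 95% interval -0.09 to 0.95, limma adjusted p = 0.520). In bulk skin, more cells of a layer and more RNA per cell cannot be told apart.

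Krt2 was at the edge of detection. It is a keratin of the upper suprabasal layers that in mice is known mainly from ear, tail and sole skin rather than the back. It had 4, 3, 12, 2 and 0 reads in the vehicle libraries and 5, 0, 2, 1 and 0 reads in the quinpirole libraries. It was the single member of the 10 below the filter for testing (1 CPM in at least 5 libraries), and with 21 and 8 reads per group a difference was not detectable at this depth (exact two-sided permutation p = 0.278, n = 5 each, unadjusted).

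Of the stress keratins, Krt6a, Krt6b and Krt16 had lower means with quinpirole and Krt17 differed little, and none of the 4 passed the test over all genes. Krt6a, a type II chain induced by wounding, measured 7247, 2540, 5550, 7401 and 5011 CPM in vehicle and 1998, 1682, 3568, 3307 and 3463 CPM with quinpirole. Vehicle replicate 2 lay inside the quinpirole range, and the other 4 vehicle libraries were above all quinpirole libraries. The means were 5550 ± 1979 and 2804 ± 892 CPM (SD, n = 5 each). The difference of the mean log2(CPM + 1) values was -0.96, or 1.94-fold lower with quinpirole (SE 0.33, 95% interval -1.67 to -0.25, limma adjusted p = 0.292). DESeq2 on the reads recovered from the table called Krt6a lower (log2 fold change -0.99, adjusted p = 0.0384), as 1 of 219 genes, or 1.51% of those it tested.

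Krt6b, encoded next to Krt6a, measured 10095, 4487, 7515, 10671 and 8358 CPM in vehicle and 2987, 2135, 7088, 5030 and 5960 CPM with quinpirole. Again vehicle replicate 2 was the library within the quinpirole range (log2 fold change -0.90, SE 0.36, 95% interval -1.68 to -0.11, limma adjusted p = 0.374). Krt16, the type I partner of the Krt6 chains, measured 5277, 2616, 4233, 4906 and 4531 CPM in vehicle and 1881, 1561, 3226, 3515 and 3147 CPM with quinpirole. The pattern was that of Krt6a, with vehicle replicate 2 low and quinpirole replicates 1 and 2 lowest. The means were 4312 ± 1027 and 2666 ± 881 CPM (SD, n = 5 each), and the log2 fold change was -0.73 (SE 0.27, 95% interval -1.33 to -0.13, limma adjusted p = 0.342). Krt17, a type I stress keratin that is also made throughout hair follicles, measured 3500, 1840, 3085, 2479 and 3224 CPM in vehicle and 2309, 2502, 2156, 3733 and 2202 CPM with quinpirole. The groups overlapped throughout, and quinpirole replicate 4 was the highest library of all (log2 fold change -0.13, SE 0.22, 95% interval -0.60 to 0.35, limma adjusted p = 0.866).

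**Figure D2:**
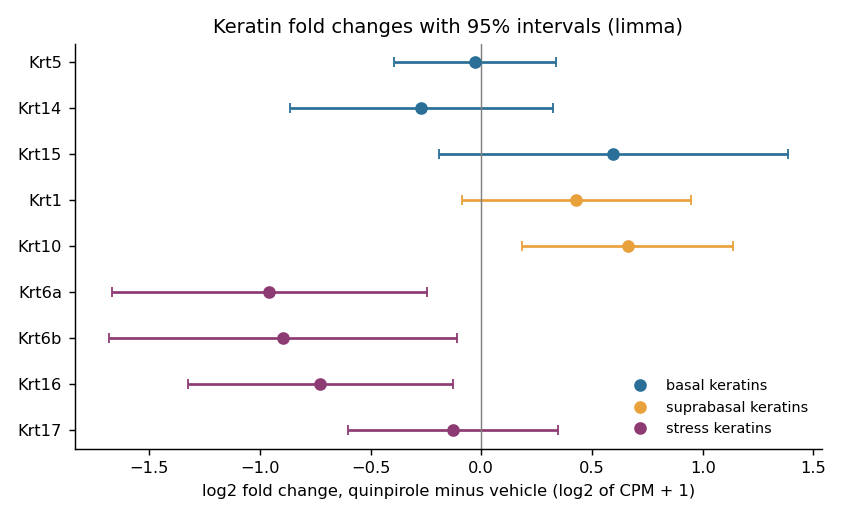
Log2 fold change of quinpirole over vehicle (x axis, log2 of CPM plus 1) for the 9 tested keratins, with 95% limma intervals, coloured by class. The intervals of Krt10, Krt6a, Krt6b and Krt16 leave out 0 before adjustment, and none of the 9 passed after adjustment over all genes.

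Counted together, 0 of 9 tested members were called by limma, where 0.0206% of all genes were (3 of 14548). At an unadjusted p under 0.05 there were 4 members, Krt10 higher and Krt6a, Krt6b and Krt16 lower, beside 11.4% of all tested genes (6.92% higher and 4.47% lower). Krt6a and Krt6b share sequence and are not separate evidence. Log2 fold changes were negative for 6 of 9 members, the basal Krt5 and Krt14 and the 4 stress keratins, and for 50.4% of all genes. For none of the 9 did the groups separate without overlap, where 2.20% of all genes did. The median log2 fold change was -0.03 for the 3 basal members, 0.55 for the 2 tested suprabasal members and -0.81 for the 4 stress members, against -0.0021 for all tested genes. Leaving out vehicle replicate 2 moved Krt6a to -1.22 (limma adjusted p = 0.196), and no removal of a single library led to a call of a member.

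A ratio of 2 keratins within a library does not depend on how that library was scaled. Compared here were 14 such ratios, with pairs that were chosen with the gene results known. The tests used log2(CPM + 1) values, where the added 1 matters at low levels. For Krt2 over Krt1 the log2 difference was -0.75, and -1.44 with 0.1 added instead. The clearest separation was between the stress and suprabasal type I chains. By gene, Krt16 had a lower and Krt10 a higher mean with quinpirole. Their ratio combines those differences and is not separate evidence. Krt16 over Krt10 was 4.37, 1.70, 2.67, 5.15 and 2.35 in the vehicle libraries and 1.23, 0.563, 1.43, 1.29 and 1.52 in the quinpirole libraries. Every quinpirole library was below every vehicle library, the sole ratio of 14 for which the groups did not overlap. The mean log2 ratio differed by -1.39, or 2.62-fold (95% interval -2.35 to -0.51, exact two-sided permutation p = 0.00794, n = 5 each, the smallest that 5 against 5 libraries allow). After Benjamini-Hochberg adjustment over the 14 ratios the exact p was 0.111, which is also the lowest that a lone ratio can reach here, so this family could not pass on a single ratio.

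The corresponding type II ratio, Krt6a over Krt1, was 1.96, 0.568, 1.17, 1.95 and 0.816 in vehicle and 0.477, 0.255, 0.585, 0.376 and 0.636 with quinpirole. Vehicle replicate 2 again lay among the quinpirole libraries (log2 difference -1.39, 95% interval -2.37 to -0.37, exact permutation p = 0.0238, adjusted 0.111). Against the basal layer, Krt6a over Krt5 averaged 1.75 ± 0.442 in vehicle and 0.912 ± 0.225 with quinpirole (log2 difference -0.93, exact permutation p = 0.0238, adjusted 0.111). Krt16 over Krt14 averaged 0.470 ± 0.0802 and 0.347 ± 0.0893 (log2 difference -0.46, exact permutation p = 0.0397, adjusted 0.111). Krt10 over Krt14, differentiated against basal, averaged 0.168 ± 0.0659 in vehicle and 0.310 ± 0.105 with quinpirole, with 4 of 5 quinpirole libraries above the vehicle range (log2 difference 0.93, exact permutation p = 0.0317, adjusted 0.111). In all, 0 of 14 ratios passed after adjustment and 5 had an unadjusted exact p under 0.05. Members recur among those 5, which are not independent of each other. Without vehicle replicate 2, Krt6a over Krt5, Krt6a over Krt1 and Krt16 over Krt10 passed, each with an adjusted exact permutation p of 0.0370. That library held the lowest vehicle value of each of these ratios, so leaving it out favours a difference. No ratio passed when any other single library was left out.

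The other 9 ratios, mostly between partners and between members of the same class, had an unadjusted exact p above 0.05. Krt14 over Krt5 was 2.96 ± 0.324 in vehicle and 2.54 ± 0.56 with quinpirole (log2 difference -0.24, 95% interval -0.58 to 0.15), and Krt10 over Krt1 was 0.314 ± 0.0369 and 0.369 ± 0.0398 (0.23, exact permutation p = 0.0556, adjusted 0.130). Krt6b over Krt6a was 1.52 ± 0.182 and 1.60 ± 0.269 (0.06, -0.21 to 0.38), and Krt16 over Krt6a 0.818 ± 0.148 and 0.949 ± 0.0655 (0.23, -0.07 to 0.50). Krt17 over Krt16, the pair of stress type I chains, was 0.663, 0.704, 0.729, 0.505 and 0.712 in vehicle and 1.23, 1.60, 0.668, 1.06 and 0.700 with quinpirole. Quinpirole replicates 1, 2 and 4 lay above the whole vehicle range and replicates 3 and 5 within it (log2 difference 0.60, 95% interval -0.05 to 1.22, exact permutation p = 0.0952, adjusted 0.156). Krt17 over Krt14 differed by 0.14 (95% interval -0.72 to 0.90), Krt1 over Krt5 by 0.46 (-0.09 to 1.02) and Krt15 over Krt14 by 0.87 (-0.71 to 2.38), and Krt2 over Krt1 rested on few reads. None of these 9 ratios had an adjusted exact p below 0.130.

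**Figure D3:**
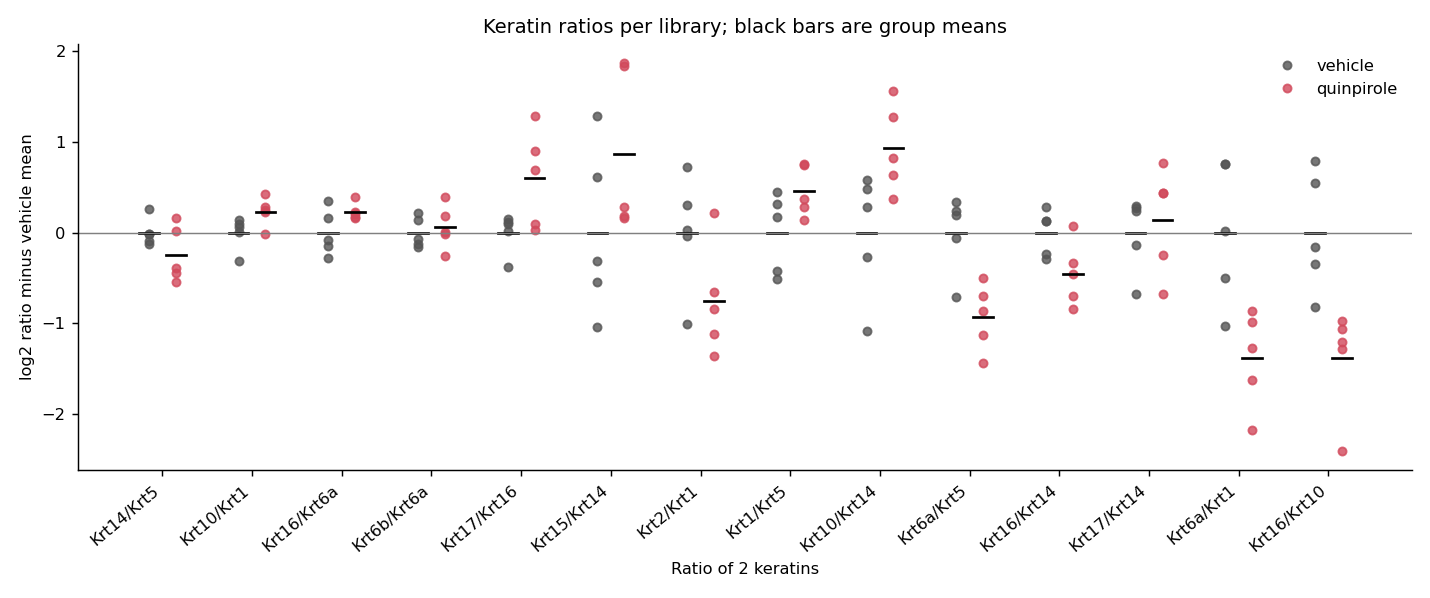
Log2 of each of the 14 ratios in each library, relative to the vehicle mean of that ratio (y axis), for vehicle (grey) and quinpirole (red) libraries, with group means as black bars. Krt16/Krt10 separates the groups fully, and Krt6a/Krt1 separates them apart from the lowest vehicle library.

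Summed by class, and given as a description without a test, the basal keratins made up 29.2% to 35.7% of the CPM of the 10 keratins in vehicle and 28.6% to 37.9% with quinpirole. The stress keratins made up 42.9% to 59.6% in vehicle and 30.0% to 43.6% with quinpirole. The suprabasal keratins made up 10.1% to 22.5% and 21.3% to 35.8%. For the stress and suprabasal shares, vehicle replicate 2 was the library that reached into the quinpirole range. The stress sum over the suprabasal sum was 5.32, 1.91, 3.22, 5.37 and 2.62 in vehicle and 1.60, 0.840, 1.92, 1.35 and 1.97 with quinpirole. The summed level of all 10 was 39387 ± 7774 CPM in vehicle and 32125 ± 7094 CPM with quinpirole (SD, n = 5 each), with overlapping groups.

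**Figure D4:**
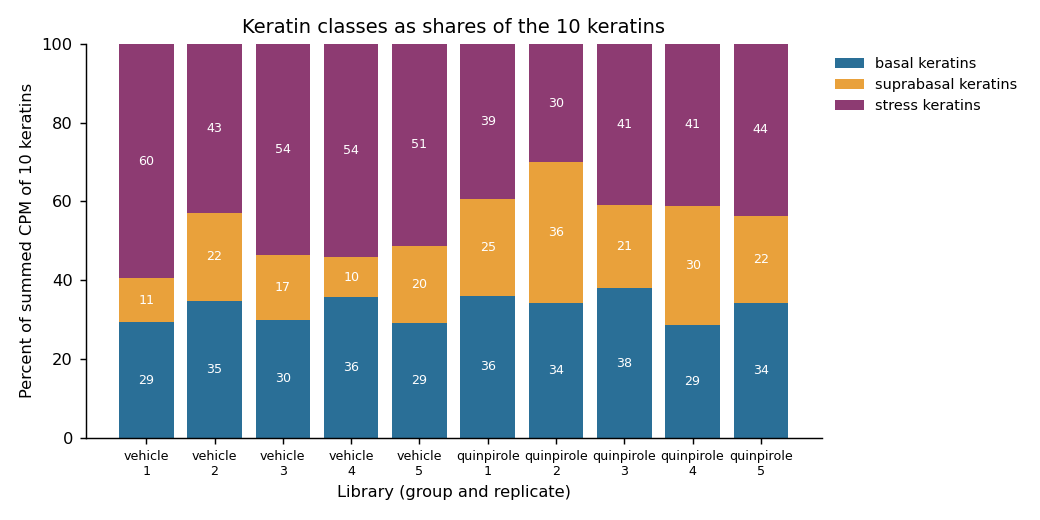
Percent of the summed CPM of the 10 keratins held by the basal, suprabasal and stress members in each library. The basal share is 29.2% to 35.7% in vehicle and 28.6% to 37.9% with quinpirole, while the stress share is 42.9% to 59.6% in vehicle and 30.0% to 43.6% with quinpirole.

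Within groups, some members varied together from library to library. After the mean of each group was removed, 36 pairs of the 9 tested members were correlated over 10 libraries, with permutation within groups and adjustment over the 36 pairs, and 10 pairs passed, all of them positive. Krt1 and Krt10, which share no 50-base words, had Pearson's r = 0.89 (permutation p = 0.00146, adjusted 0.0188) and Spearman's rho = 0.92 (permutation p = 8.80e-04, adjusted 0.0106), and r = 0.90 without the 2 libraries farthest from the median of Krt1. Krt6a and Krt16, partner chains of type II and type I, had r = 0.95 (permutation p = 0.00157, adjusted 0.0188) and rho = 0.77 (permutation p = 0.00634, adjusted 0.0380), and r = 0.88 without 2 libraries. The other 8 pairs were all among Krt5, Krt14, Krt6a, Krt6b and Krt16, with r between 0.80 and 0.95. Among them, Krt6a shares 50-base words with Krt6b, and Krt5 shares such words with both. The part of read division in their r was not tested. By rank, 9 of the 10 passed, the exception being Krt5 with Krt6b (rho = 0.76, permutation p = 0.0205, adjusted 0.0738). Krt16 with Krt17 did not pass (r = 0.53, permutation p = 0.165, adjusted 0.333; rho = 0.28, permutation p = 0.457, adjusted 0.632), nor did Krt16 with Krt10 (r = -0.08, permutation p = 0.833, adjusted 0.937; rho = -0.18, permutation p = 0.631, adjusted 0.834).

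The libraries differed widely in hair RNA, and this crossed the groups. The mean log2 level of 14 tested hair shaft keratins was 4.65, 5.42, 5.65, 2.74 and 0.31 in the vehicle libraries and 5.62, 0.37, 3.35, 0.31 and 1.99 in the quinpirole libraries. The 3 libraries lowest in hair keratins, vehicle replicate 5 and quinpirole replicates 2 and 4, were the 3 highest in Krt1. Over 10 libraries Krt1 had r = -0.75 with the hair mean (permutation p = 0.0156, adjusted 0.140 over 9 members), rho = -0.70 (permutation p = 0.0307, adjusted 0.277) and r = -0.61 without 2 libraries, so it did not pass. Krt10 had r = -0.60 (permutation p = 0.0713, adjusted 0.321) and rho = -0.58 (permutation p = 0.0874, adjusted 0.393). For Krt6a, Krt6b and Krt16, r lay between 0.03 and 0.11, with adjusted permutation p of 0.921 for each, and rho between -0.05 and 0.12 (adjusted permutation p = 0.973 for each). With the hair mean as a covariate the log2 fold changes were 0.53 for Krt10, 0.27 for Krt1, -1.02 for Krt6a, -0.95 for Krt6b and -0.80 for Krt16, with limma adjusted p from 0.290 to 0.734.

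**Figure D5:**
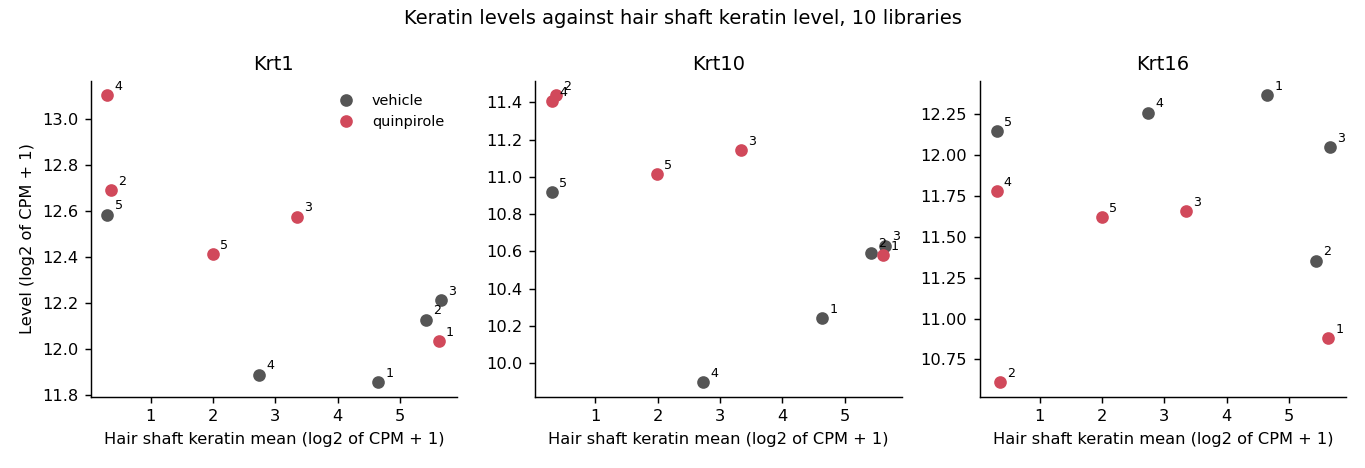
Level of Krt1, Krt10 and Krt16 (y axes, log2 of CPM plus 1) against the mean level of 14 hair shaft keratins (x axis, log2 of CPM plus 1) in the 10 libraries, numbered by replicate. Krt1 is high in the 3 libraries lowest in hair keratins, and Krt16 has r = 0.03.

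Markers of other tissues in whole skin were read beside the keratins. The 10 skeletal muscle markers, of the muscle sheet under the skin, all had positive log2 fold changes (median 1.18). Their summed levels were 526 to 1932 CPM in vehicle and 1081 to 5393 CPM with quinpirole. At an unadjusted limma p under 0.05, 6 of these 10 were higher, and 2 did not overlap between the groups. All 8 sebocyte markers had positive log2 fold changes (median 0.50) and summed to 1667 to 3626 CPM and 2760 to 4775 CPM. Of these 8, 4 were higher at that p and 1 did not overlap. Over all tested genes 6.92% were higher at that p and 2.20% did not overlap. All 7 melanocyte markers had negative log2 fold changes (median -0.93, summed 23.6 to 464 and 23.6 to 283 CPM). The 7 fibroblast markers split in direction, 4 positive and 3 negative (median 0.22, range -0.35 to 0.88, summed 4419 to 7448 and 4712 to 6794 CPM). So did the 6 tested macrophage markers, 4 positive and 2 negative (median 0.21, range -0.58 to 0.65). The 6 tested T cell markers were 3 positive and 3 negative (median -0.07). The 6 tested neutrophil markers were 1 positive and 5 negative (median -0.58, summed 77.1 to 191 and 74.0 to 150.2 CPM), with Camp below the filter and Ly6g and Ngp not analysed here. The 10 hair matrix and shaft markers had a median of -1.17 and the 6 adipocyte markers -0.06. Pck1, a glyceroneogenic enzyme of fat cells, was the sole marker called (log2 fold change -1.88, limma adjusted p = 0.0441). With the muscle mean as a covariate the log2 fold change was 0.37 for Krt10, 0.09 for Krt1, 1.36 for Krt15, -1.35 for Krt6a and -1.18 for Krt16, with limma adjusted p from 0.282 to 0.972. The part of these tissues in the keratin values was not otherwise tested.

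Other keratins were set beside the members by site. Among 6 tested keratins of other suprabasal cells and appendages, 4 had positive log2 fold changes and none was called. Krt79, a keratin of the upper follicle and sebaceous duct, measured 448 to 727 CPM in vehicle and 784 to 1276 CPM with quinpirole, without overlap (log2 fold change 0.73, limma adjusted p = 0.169). Krt77, a suprabasal type II chain related to Krt1, measured 2.41 ± 2.16 and 7.49 ± 4.24 CPM (log2 fold change 1.37, limma adjusted p = 0.232). Krt23 and Krt78 had log2 fold changes of 0.24 and 0.30. All 7 inner root sheath keratins had negative log2 fold changes (median -1.77), among them Krt73 at -2.18 with SE 1.63, as did all 14 tested hair shaft keratins (median -1.57), among them Krt35 at -2.02 with SE 1.52. None of these 21 had an unadjusted p under 0.05. Of the simple epithelial keratins Krt19 alone was tested, at 1.06 ± 0.546 and 0.785 ± 0.528 CPM, and the mucosal keratins Krt4, Krt13 and Krt76 were below the filter.

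Among 11 tested proteins that anchor or bundle keratin filaments, 3 had positive and 8 negative log2 fold changes (median -0.04) and none was called. Col17a1, the hemidesmosomal collagen of basal cells, measured 145 to 158 CPM in vehicle and 172 to 298 CPM with quinpirole, without overlap (log2 fold change 0.52, limma adjusted p = 0.239). The linker proteins Plec and Dst, which tie keratins to hemidesmosomes, had log2 fold changes of 0.18 and 0.14, and the envelope linker Evpl -0.14. Among 10 genes of early spinous and granular differentiation the median was 0.14, with none called. Calml3, a calmodulin-like protein of keratinocytes, had 0.33, the envelope protein Lor 0.39, the protease Casp14 0.31 and the fatty acid binder Fabp5 -0.38, with limma adjusted p from 0.431 to 0.637.

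All 10 tested genes of activated keratinocytes had negative log2 fold changes (median -0.69), 7 of them with an unadjusted p under 0.05 and none called, where 4.47% of all genes were lower at that p. The calprotectin subunits S100a9 and S100a8 had -1.05 and -0.98 (limma adjusted p = 0.260 and 0.270), the crosslinking enzyme Tgm1 -0.40 and the defensin Defb14 -0.58 (0.374 and 0.408). This list was chosen with earlier results of these data known and is no separate support. Among 18 regulators of keratin genes, 8 had positive and 10 negative log2 fold changes (median -0.04). Sox9, a factor of the outer root sheath, had 0.52, Ovol1, a repressor in differentiating cells, -0.39, Notch1 -0.47 and the AP-1 subunit Junb -0.19, with limma adjusted p from 0.399 to 0.713. Of 10 proliferation genes 9 had negative log2 fold changes (median -0.23), with Birc5, a survivin-encoding mitotic gene, at -0.41, the cyclin Ccnb1 at -0.42, Cdk1 at -0.28 and Top2a at -0.31 (limma adjusted p from 0.349 to 0.634). Of 7 tested outer root sheath and bulge markers 5 had positive and 2 negative log2 fold changes (median 0.19, range -0.48 to 0.62). The smallest p-values were those of Nfatc1 at 0.62 and Cd34 at 0.47 (limma adjusted p = 0.254 and 0.257).

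The genes whose within-group pattern over the 10 libraries was most like that of a lead gene of each class were picked by Pearson's r from all tested genes averaging at least 10 CPM. They are given as a description, since each is the extreme of many genes. For Krt14 these were Pafah2 (r = 0.97), the connexin Gjb6 (0.94), Ces2g (0.93), Cemip (0.92) and the kallikrein Klk13 (0.91). Gjb6 and Klk13 had log2 fold changes of -0.93 and -1.12, whereas Pafah2 had -0.08. For Krt10 they were Rmnd5a (0.96), Baz2a (0.96), Srcin1 (0.95), the kinesin Kifc3 (0.95) and the transporter Abcc10 (0.95), of which Srcin1 had a log2 fold change of 0.79 and the rest between -0.05 and 0.13. For Krt16 they were the glycolytic enzymes Eno1 (0.97) and Pkm (0.95), with Atp10d (0.96), Nsfl1c (0.96) and the dynactin subunit Dctn4 (0.95). Their log2 fold changes lay between -0.29 and 0.08 beside -0.73 for Krt16.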

How the data were processed

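Per the labels' protocols, total RNA of whole skin was depleted of ribosomal RNA and made into directional libraries. Per the submitters' processing notes, the tools were RSEM 1.3.0, Trimmomatic 0.38, edgeR and Bowtie2 and the build mm10, listed with no role. Annotation and gene filter were not given in the sources used here, and RSEM is known to split reads among similar genes. The deposited values are a signal, counts scaled by the authors, in which 100% of values were whole multiples of 1 read (tolerance 1e-06), and its scaling equalled edgeR's TMM. No gene had under 10 reads in all.

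The mean total of the columns served as the divisor that gives CPM, which was tested as log2 of CPM plus 1. Genes reaching 1 CPM in at least 5 libraries (14548) were fitted with limma 3.58.1 with a mean-variance trend in R 4.3.3, two-sided, without covariates, adjusted by Benjamini-Hochberg and called at 0.05. Ratios used exact permutation over 252 splits, with intervals that invert that test. Correlations used 100000 permutations. Positions and transcripts came from GENCODE M21 (mm10), with the longest coding transcript as length. Alternatives used edgeR 4.0.16 and DESeq2 1.42.0 on recovered reads, other pseudocounts, filters, scalings, covariates, a replicate block and leaving out each library. The limma steps were tested on simulated data. Between any pair of libraries of a group, chi-square per gene was 6.56 or more (about 1 from sampling noise alone), and each was counted as a sample. No batch label was used here.

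The members, ratios and lists were chosen with earlier results of these data known. Genes named are the members, up to 4 genes per list with the smallest p, and the 5 genes most like Krt14, Krt10 and Krt16, leaving out provisional symbols and pseudogenes. Gm5478 and Gm11597 are named for shared sequence, outside that rule, after values were seen. Figures were drawn with matplotlib 3.10.9.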

Additional observations from a re-analysis of the deposited data

Results flagged for a closer look

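In 48 groups of 5 libraries examined (10 keratins and 14 ratios in 2 groups), 3 had a library far from the other 4, and chance flags about 1 in 20 groups. Krt17 in quinpirole replicate 4 was at 3733 CPM, against 2156 to 2502 CPM in the other quinpirole libraries. Krt14 over Krt5 in vehicle replicate 4 was 3.51, against 2.70 to 2.91 in the other vehicle libraries. Krt16 over Krt6a in quinpirole replicate 4 was 1.06, against 0.904 to 0.941 in the others. Quinpirole replicate 4 was also the highest library for Krt1 and for the skeletal muscle markers.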

How the results depend on the processing

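Over 22 alternatives, Krt14, Krt17, Krt6a, Krt6b and Krt16 kept negative and Krt15, Krt1 and Krt10 positive log2 fold changes, and the single call of a member was Krt6a by DESeq2 (-0.99, adjusted p = 0.0384). Krt5 turned positive with quantile normalization (0.10) and in 4 leave-one-out fits, where its range was -0.11 to 0.039. Values without vehicle replicate 1, vehicle replicate 4, quinpirole replicate 1 and quinpirole replicate 2 were 0.0069, 0.039, 0.026 and 0.012. Leave-one-out ranges were -1.22 to -0.79 for Krt6a, -1.10 to -0.65 for Krt6b, -0.90 to -0.55 for Krt16 0.52 to 0.80 for Krt10 and 0.29 to 0.56 for Krt1. Beside Krt5, leaving out 1 library moved 3 members, none of them called, by over 1.5 times: Krt15 from 0.60 to between 0.33 (without vehicle replicate 5) and 0.81 (without vehicle replicate 2), Krt14 from -0.27 to between -0.42 (without quinpirole replicate 3) and -0.14 (without vehicle replicate 4), and Krt17 from -0.13 to between -0.27 (without vehicle replicate 2) and -0.04 (without vehicle replicate 1). Limma called 3 genes of all tested, and 5 with a pseudocount of 0.1, 6 without a filter, 6 with a filter of 10 CPM, 5 with median-ratio scaling, 9 without the trend, 6 with the hair covariate, 0 with the muscle covariate (1217 at an unadjusted p under 0.05), 0 with the replicate block (1576) and 0 to 10 leaving out a library, with 10 without vehicle replicate 5, 1 without vehicle replicate 3 and 0 in the other 8 fits. EdgeR called 5 and DESeq2 219. The count of ratios passing was 0, with a range of 0 to 3 leaving out a library and 3 without vehicle replicate 2. Krt6b over Krt6a ranged from -0.022 (without quinpirole replicate 3) to 0.14, and Krt17 over Krt14 from -0.025 (without vehicle replicate 4) to 0.35, with -0.011 without quinpirole replicate 4. The causes were not tested. Same-numbered libraries of the 2 groups correlated from -0.24 to 0.22. Whether libraries of the same number belong together was not tested. The replicate block called no member, and 0 genes in all. For ratios the blocked test is uninformative, since 5 pairs cannot give an exact two-sided p below 0.0625.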
